A study of Mus musculus with 6 samples.

Results

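Histone genes, both the replication-dependent genes and the genes of replacement variants, were examined in mouse haematopoietic stem cells before and after induction of the ETV6-RUNX1 fusion. Members were the protein-coding rows of the deposited expression table whose gene name began with Hist1h, Hist2h, Hist3h, Hist4h, H1f, H2ac, H2bc, H3c, H4c, H2af or H3f3. The rule gave 70 of 55471 genes. Of these, 63 were replication-dependent, 3 were variant genes (H1f0, H3f3a and H3f3b) and 4 were other linker histone genes (H1f6, H1f7, H1f8 and H1f10). No protein-coding row began with H2af, because the table uses newer symbols, and 12 further histone genes that the rule reaches only by an older symbol are described separately.

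All 6 libraries came from mice of the ETV6-RUNX1 genotype, so the control mice carried the fusion gene too. ETV6-RUNX1 is a gene fusion found in childhood B-cell precursor leukaemia, and here its expression is induced by doxycycline. The uninduced group was 3 libraries without doxycycline (NoDox), and the induced group was 3 libraries from mice given doxycycline food for 2 weeks (Dox). The cells were sorted as Lin-, Kit+, Sca1+, CD48- and CD150+. A doxycycline group without the fusion was not analysed here, so induction and doxycycline cannot be told apart. The labels give neither the promoter that drives the fusion nor whether each library was a separate mouse or a pool, and p-values then measure only the spread between these libraries, which may be technical.

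Histones package DNA: pairs of H2A, H2B, H3 and H4 form the nucleosome core, and H1 linker histones bind the DNA between cores. Replication-dependent histone genes lie in clusters, have no introns and are transcribed in S phase, when new DNA needs new nucleosomes. Their mRNAs mostly end in a conserved stem-loop instead of a poly(A) tail. The stem-loop is bound by SLBP, which directs processing, translation and decay of the mRNA. Variant genes such as H3f3a and H3f3b, which both encode H3.3, and H1f0, a linker histone of non-dividing and differentiating cells, give polyadenylated mRNAs throughout the cell cycle. The labels name a stranded total RNA kit, which does not select for poly(A) tails.

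The stem-loop is shown because most replication-dependent genes carry it and the 3 variant genes do not. It was searched as GGNNCTNNNNAGNNCC on the sense strand of the GENCODE M21 transcripts (genome build GRCm38), with a stem of 6 perfect base pairs and a loop of 4 bases. It was found in 42 of the 63 replication-dependent genes, in none of the 3 variant genes, and in 0.727% of 21734 other protein-coding genes. In the sequences below the capitals mark the loop.
H1f2 and 23 other replication-dependent genes: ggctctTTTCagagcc
H4c6 and 5 other H4 genes: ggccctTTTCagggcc
H2bc3, H2bc12, H3c3, H3c6 and H3c7: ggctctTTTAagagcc
H4c2 and H4c11: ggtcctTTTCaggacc
H2ac20: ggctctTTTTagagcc
H4 genes carried 2 stems not seen in the other replication-dependent classes, ggccct and ggtcct, while the matched H1, H2A, H2B and H3 genes shared the ggctct stem. The 21 replication-dependent genes without a match include models that hold coding sequence only, so no match says only that these letters are not in the annotated transcript.

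Levels were in TPM, a length-corrected share of all transcripts in a library, which keeps no sequencing depth, so no counting error can be given. Changes are differences in log2(TPM + 1), induced minus uninduced, tested with limma over the 13470 genes that averaged 1 TPM or more. A gene was called at a Benjamini-Hochberg adjusted p under 0.05. The deposited scale was offset between the groups: the median change over all tested genes was -0.35, and -0.0029 after median-of-ratios scaling, which sets the typical gene to the same level in each library. Values after that scaling, or the calls that remained, are given for most named genes where it changes a call or a sign. In these bulk libraries, fewer cells of a type and less RNA per cell cannot be told apart.

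Summed replication-dependent histone transcripts were lower in every induced library. The sum of the 3 variant genes H1f0, H3f3a and H3f3b was higher, although H3f3a itself fell, and the 9 variant genes reached only by an older symbol summed lower (387, 418 and 413 TPM, against 297, 280 and 317 TPM). With those 9 counted in, the variant difference given below shrank from 0.40 to 0.042. The 63 replication-dependent genes together held 4677, 6395 and 5165 TPM in the uninduced libraries. They held 2800, 2660 and 2908 TPM in the induced libraries. The groups did not overlap, with means of 5412 ± 885 TPM in uninduced and 2789 ± 124 TPM in induced cells (SD, n = 3 each). The mean log2 difference was -0.94. The 3 variant genes together held 362, 467 and 414 TPM in uninduced and 552, 541 and 543 TPM in induced libraries, again without overlap (log2 difference 0.40). After median-of-ratios scaling these differences were -0.54 and 0.80, and that of the 9 older-symbol genes went from -0.45 to -0.046. The ratio of the sums does not depend on the scaling of a library. On the log2 scale it was 3.69, 3.78 and 3.64 in uninduced and 2.34, 2.30 and 2.42 in induced libraries. The balance of replication-dependent to variant transcript thus differed by -1.35 log2 units, against an SD within a group of 0.068 and 0.062. No test was run on these sums.

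The core classes differed in size of shift and in how alike the uninduced libraries were. H2B genes held 1524, 1566 and 1307 TPM in uninduced and 561, 545 and 606 TPM in induced libraries. H3 genes held 415, 429 and 444 TPM, against 181, 189 and 214 TPM. H4 genes held 1136, 1441 and 1092 TPM, against 581, 572 and 626 TPM. In these 3 classes every induced library lay well below every uninduced library, with log2 differences of -1.36, -1.14 and -1.03. H1 genes held 1056, 1544 and 988 TPM, against 954, 855 and 915 TPM, a smaller difference of -0.37. The H1 difference was 0.03 after median-of-ratios scaling and -0.17 without uninduced replicate 2, so the direction of the H1 sum depends on the scaling. H2A genes held 548 TPM in uninduced replicate 1 but 1416 and 1335 TPM in the other two uninduced libraries, against 523, 499 and 547 TPM after induction. For H2A uninduced replicate 1 thus lay at the level of the induced libraries. After median-of-ratios scaling the differences were -0.96 for H2B, -0.74 for H3, -0.63 for H4 and -0.55 for H2A.

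**Figure D1:**
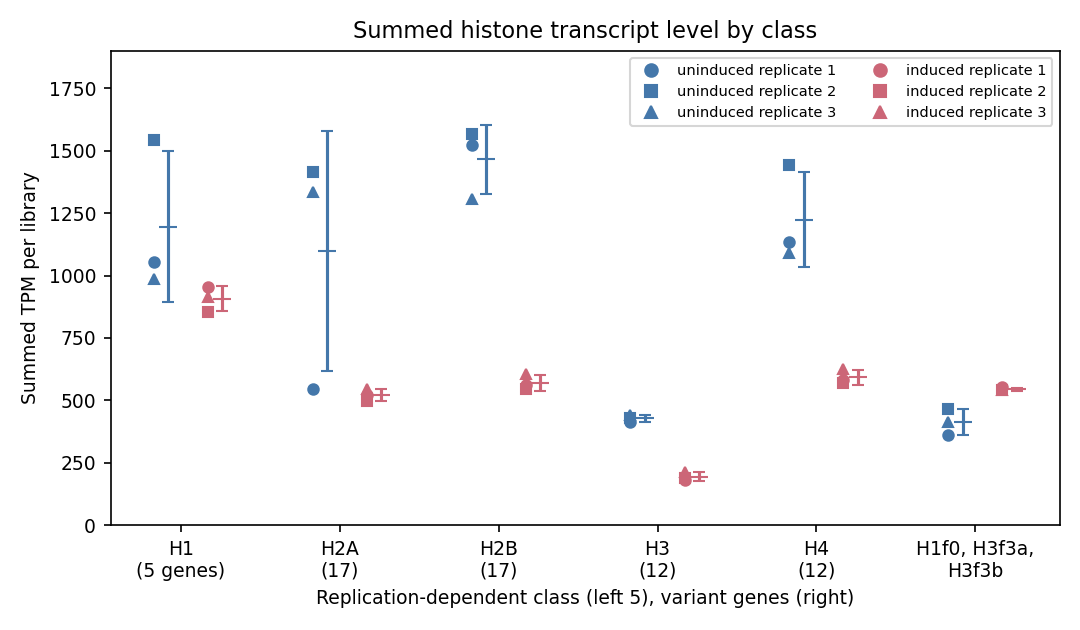
Summed TPM per library (y axis) of the replication-dependent H1, H2A, H2B, H3 and H4 genes and of the 3 variant genes (x axis). Blue points are uninduced and red points induced libraries, with mean and SD beside them (n = 3 each). H2B, H3 and H4 separate clearly, and 1 uninduced library has H2A at 548 TPM, next to the induced libraries at 499 to 547 TPM.

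Gene by gene, 60 of the 63 replication-dependent genes passed the filter on low values. H2bc6 passed only through its induced libraries. H2ac1, H2bc1 and H3c14 did not pass. H2ac1 and H2bc1, a pair of histone genes known from testis, were at 0 to 0.413 and 0 to 0.959 TPM, and H3c14 was at 0.012 to 0.874 TPM. Of the 60, 31 were called lower, where 10.2% of all tested genes were called lower, and 0 were called higher, where 1.29% of all genes were. At an unadjusted p under 0.05 there were 40 of the 60, against 27.9% of all tested genes. All induced libraries lay below all uninduced libraries for 38 of the 60 (28.2% of all tested genes) and above them for 2 (4.83%). The median change of the 60 was -1.0, and 49 of them lay below the median gene. After median-of-ratios scaling 16 were called lower and H1f2 was called higher, against 3.21% and 2.84% of all tested genes, and the median was -0.62.

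The calls were spread unevenly over the classes. Of the H2B genes 10 of 16 tested fell, of the H3 genes 8 of 11, of the H4 genes 9 of 12, of the H1 genes 2 of 5 and of the H2A genes 2 of 16, where 10.2% of all tested genes were called lower. The H2A share lies near that background. After median-of-ratios scaling 6 H2B, 3 H3, 4 H4, 2 H1 and 1 H2A genes were called lower, against 3.21% of all tested genes. Without uninduced replicate 1 these were 8 H2B, 4 H3, 4 H4, 2 H1 and 7 H2A genes, against 4.63%. The spread over the classes thus depends on that library. Median changes were -1.28 for H2B, -1.03 for H3, -1.02 for H4, -1.41 for H1 and -0.62 for H2A. A difference between classes was not tested. Leaving out any 1 library left 16 of the 31 calls in place each time. These were H1f1, H1f5, H2ac10, H2bc3, H2bc12, H2bc13, H2bc15, H2bc18, Hist1h2bq, H3c1, H3c2, H3c3, H4c2, H4c6, H4c11 and H4c12. Of them H2bc13 was not called after median-of-ratios scaling (-0.66, limma adjusted p 0.066). The number of replication-dependent genes called fell to 18 without uninduced replicate 2 and to 18 without induced replicate 2.

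**Figure D2:**
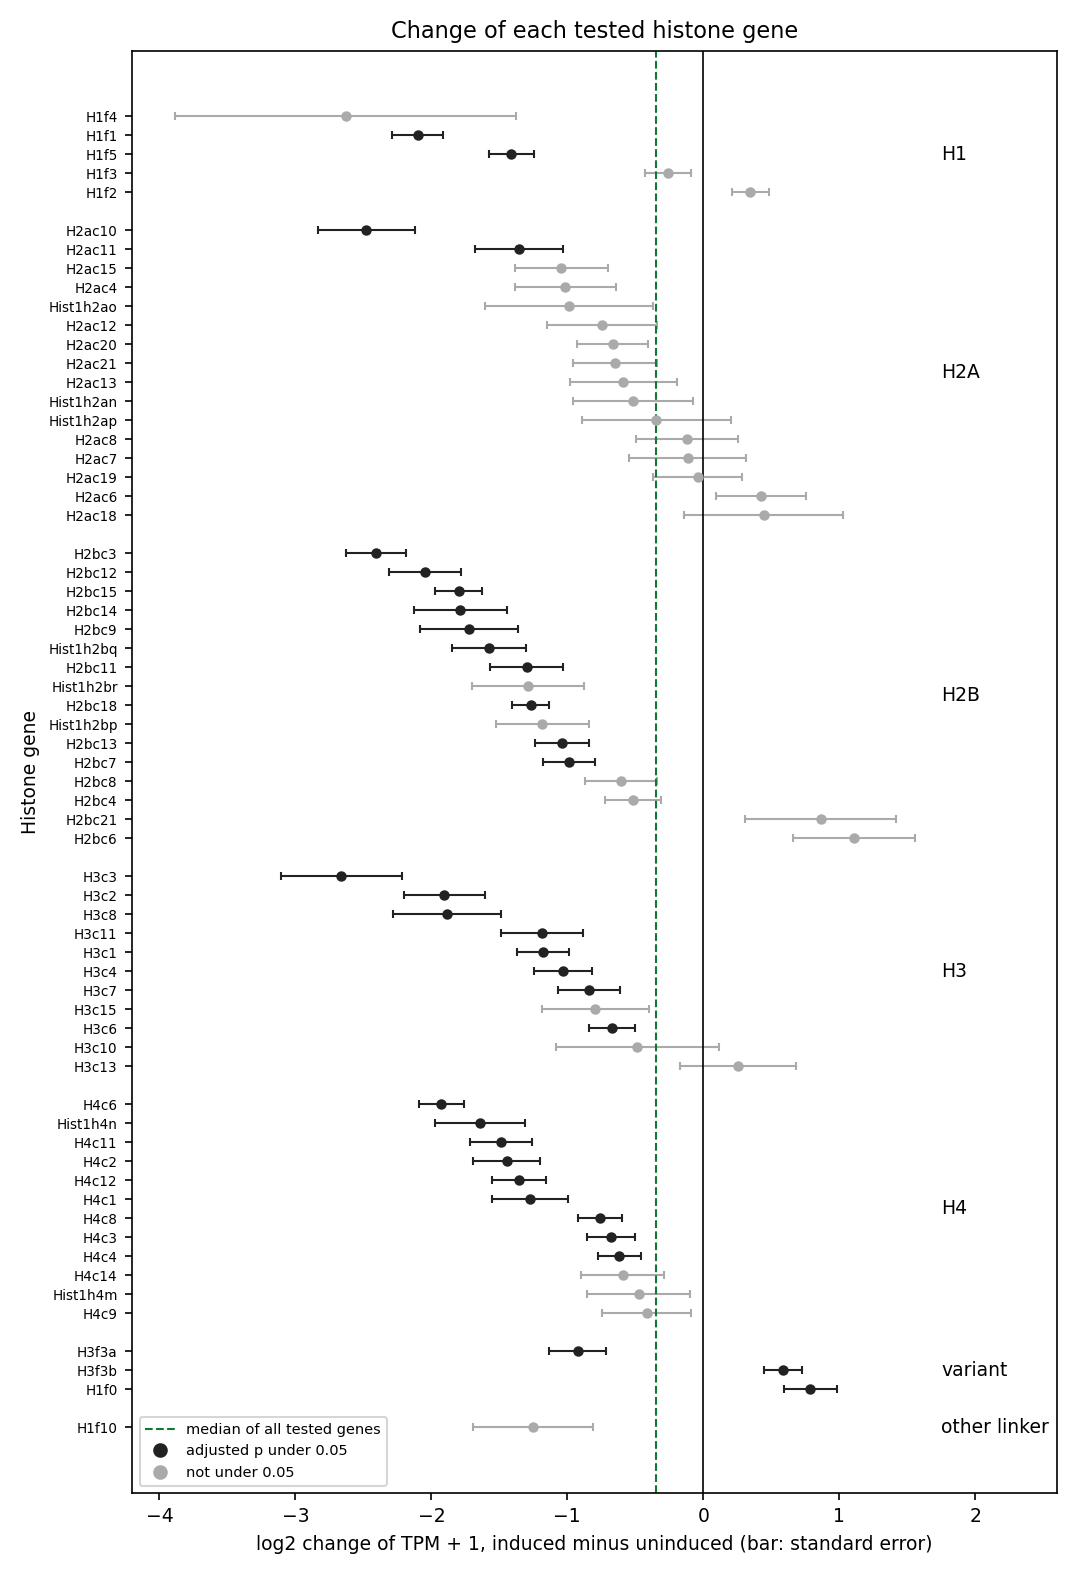
The log2 change of TPM + 1 (x axis, induced minus uninduced, bar: standard error) of each tested histone gene (y axis), by class. Black points have an adjusted p under 0.05, and the dashed line is the median of all tested genes at -0.35. All 12 H4 genes lie below 0, as do 9766 of all 13470 tested genes. Most H2A genes are grey, and H1f0 and H3f3b lie to the right.

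Linker histones split. H1f1 (ENSMUSG00000049539, GRCm38 chr13:23763666-23764406), an H1 subtype typical of dividing cells, was at 264, 303 and 241 TPM in uninduced and 79.3, 53.3 and 55.6 TPM in induced libraries. Every induced library was far below the uninduced ones, and H1f1 fell by 2.10 on the log2 scale (SE 0.19, limma adjusted p 4.52e-04). H1f5 was at 169, 185 and 162 TPM, against 75.3, 59.0 and 58.7 TPM, and fell by 1.41 (SE 0.17, limma adjusted p 0.0017). H1f2 (chr13:23738808-23740367), the most abundant histone gene of the set, went the other way, with 539, 656 and 521 TPM in uninduced and 750, 686 and 734 TPM in induced libraries. The groups did not overlap, but on the deposited scale the change of 0.34 (SE 0.14) was not called, with a limma adjusted p of 0.132. After median-of-ratios scaling H1f2 was called higher, with a change of 0.75 and an adjusted p of 0.0041. H1f3 was at 64.6, 64.5 and 60.5 TPM, against 48.6, 51.5 and 58.6 TPM, a change of -0.26 (limma adjusted p 0.360) that turned to 0.14 after median-of-ratios scaling.

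The makeup of linker transcripts differed between the groups. H1f2 held 51.0%, 42.5% and 52.7% of the summed TPM of the 5 H1 genes in the uninduced libraries. It held 78.6%, 80.2% and 80.2% in the induced libraries. This share is independent of scaling, and the groups did not overlap. H1f4 was erratic, at 19.2, 336 and 3.44 TPM in uninduced and 1.13, 5.26 and 8.55 TPM in induced libraries. Uninduced replicate 2 alone set its mean, and its annotated span overlaps that of H2bc6 on the same strand, so its level is uncertain.

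H2A genes had the lowest share called with all 6 libraries, but not without uninduced replicate 1, which lowered the uninduced mean. H2ac10 (ENSMUSG00000061991, chr13:23533906-23534304) was at 108, 306 and 320 TPM in uninduced and 36.6, 42.5 and 36.9 TPM in induced libraries. It fell by 2.48 (SE 0.36, limma adjusted p 0.0040), and even the low uninduced library was above the induced ones. H2ac20, the most abundant H2A gene, was at 174, 408 and 282 TPM, against 169, 161 and 182 TPM, so the groups overlapped through uninduced replicate 1. Its change of -0.67 had a limma adjusted p of 0.132, and without uninduced replicate 1 it was -0.99 with an adjusted p of 0.031.

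Over the 16 tested H2A genes, uninduced replicate 1 was lower than the mean of the other two uninduced libraries in 15, with a median log2 difference of -1.41. The same median was 0.043 over all tested genes, 0.11 over H2B, -0.062 over H3 and -0.098 over H4. Without that library 7 of 16 H2A genes were called lower, with a median change of -1.04, and H2ac12, H2ac13, H2ac15, H2ac20 and Hist1h2ao were gained. Over all tested genes 4.63% were then called lower. The tested H2A genes had a median GC content of 64.26%, against 46.3% over all tested genes. Across all tested genes the difference of uninduced replicate 1 had a Pearson r of -0.052 with GC content, and over the 60 replication-dependent genes it was -0.32 and within H2A -0.12, all descriptions over genes of the same libraries. After correction for GC content 3 H2A genes and 32 replication-dependent genes were called lower, against 10.4% of all tested genes. What sets the H2A level of uninduced replicate 1 was not tested.

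Among the H2B genes, 12 of 16 tested had every induced library below every uninduced one, against 28.2% of all tested genes. H2bc3 (ENSMUSG00000075031, chr13:23746734-23747241) was at 182, 211 and 159 TPM in uninduced and 46.0, 29.4 and 28.1 TPM in induced libraries. It fell by 2.41 (SE 0.22, limma adjusted p 4.52e-04). H2bc18 (ENSMUSG00000105827, chr3:96269752-96270132), the most abundant H2B gene, was at 562, 544 and 493 TPM, against 224, 201 and 238 TPM. It fell by 1.27 (SE 0.14, limma adjusted p 0.0011). H2bc15 was at 290, 225 and 222 TPM, against 75.3, 73.6 and 60.3 TPM, and fell by 1.80 (limma adjusted p 5.72e-04). H2bc12, a less abundant copy, was at 29.8, 34.7 and 21.5 TPM, against 5.63, 5.70 and 6.87 TPM, and fell by 2.05 (limma adjusted p 0.0025). For these 4 genes the highest induced library lay below the lowest uninduced library, and all 4 calls held after median-of-ratios scaling.

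A pair of H2B genes had estimates above 0. H2bc6 was at 0.627, 0.218 and 0.261 TPM in uninduced and 2.17, 1.27 and 2.51 TPM in induced libraries. Its induced libraries were all higher, yet the change of 1.11 was not called (limma adjusted p 0.139). H2bc21 was at 4.45, 4.0 and 0.353 TPM, against 7.19, 3.24 and 5.41 TPM, which overlap, and its limma adjusted p was 0.347.

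Promoters of the called H2B genes H2bc3 and H2bc18 are shown for the octamer, the element bound by the Oct-1 (Pou2f1) factor in H2B promoters. The sequences are the 120 bases before the RefSeq start (GRCm38.p6, plus strand), at chr13:23746614-23746733 and chr3:96269580-96269699. The capitals mark the octamer ATTTGCAT, whose first base lies 90 bases before the start in H2bc3 and 48 bases before it in H2bc18.
H2bc3: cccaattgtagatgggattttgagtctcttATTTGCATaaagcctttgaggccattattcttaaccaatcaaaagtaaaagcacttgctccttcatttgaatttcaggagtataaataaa
H2bc18: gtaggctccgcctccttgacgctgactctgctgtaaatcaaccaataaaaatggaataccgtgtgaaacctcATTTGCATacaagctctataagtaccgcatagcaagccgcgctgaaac
RefSeq promoters matched 57 of the 70 members by symbol, 50 of them replication-dependent. Within 250 bases before the start, on both strands, ATTTGCAT was present in 24.0% of the 50 and in 1.61% of 27025 promoters of all genes. It was found in 6 of 12 H2B and 6 of 14 H2A promoters and in none of the replication-dependent H1, H3 or H4 promoters. Promoters of neighbouring genes on opposite strands can overlap, so the same bases can count in both classes. This holds for H2ac12 with H2bc12, H2ac8 with H2bc8 and H2ac1 with H2bc1, which all hold the octamer. Of the 3 variant promoters that of H3f3b held it. CCAAT was present in 84.0% of the 50 against 34.5% of all, TATAAA in 48.0% against 12.97%, and TTTCGCGC in 5 of the 50 against 0.255%. The H2B genes with the octamer had 4 of 5 tested genes called lower (median change -1.79), and those without it 5 of 6 (median -1.17). After median-of-ratios scaling these were 3 of 5 and 2 of 6. Over all tested genes 10.2% were called lower, and 3.21% after that scaling. A match is a description of the letters and not a shown binding site.

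The H3 gene H3c3 (ENSMUSG00000069310, chr13:23744973-23745602) was at 31.0, 44.0 and 55.4 TPM in uninduced and 12.1, 2.42 and 6.20 TPM in induced libraries. It fell by 2.66 (SE 0.44, limma adjusted p 0.0061), the largest called change of the set. H4c6 (ENSMUSG00000069274, chr13:23551258-23551648) was at 150, 167 and 136 TPM, against 36.2, 40.2 and 40.2 TPM. It fell by 1.93 (SE 0.16, limma adjusted p 3.10e-04), with tight replicates in both groups. H4c4, the most abundant H4 gene, was at 270, 331 and 262 TPM, against 165, 187 and 208 TPM, and fell by 0.62 (limma adjusted p 0.034). H4c4 was not called after median-of-ratios scaling, with a change of -0.22 and an adjusted p of 0.354. Its call was also lost in 5 of 6 fits without 1 library, with adjusted p from 0.047 to 0.124, and held only without uninduced replicate 3. All 12 H4 genes had changes below 0 under either scaling. So had 9766 of all 13470 tested genes on the deposited scale, and 6766 after median-of-ratios scaling. After that scaling 4 H4 genes were called lower, against 3.21% of all tested genes.

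Of the 3 variant genes 2 were called higher and 1 lower, against 1.29% and 10.2% of all tested genes. After median-of-ratios scaling 2 were called higher and 0 lower, against 2.84% and 3.21%. H3f3b (ENSMUSG00000016559, chr11:116021912-116027962) was at 250, 311 and 259 TPM in uninduced and 419, 417 and 395 TPM in induced libraries. It rose by 0.59 (SE 0.14, limma adjusted p 0.026). H1f0 (ENSMUSG00000096210, chr15:79028450-79030504) was at 44.9, 64.2 and 46.0 TPM, against 91.2, 78.9 and 97.2 TPM, and rose by 0.79 (SE 0.20, limma adjusted p 0.031). After median-of-ratios scaling these changes were 0.99 (adjusted p 0.0030) and 1.18 (adjusted p 0.0045). H3f3a (ENSMUSG00000060743, chr1:180800832-180813943), which encodes the same H3.3 protein as H3f3b, was at 67.5, 91.4 and 109 TPM, against 42.4, 45.0 and 50.3 TPM. It fell by 0.92 (SE 0.21, limma adjusted p 0.021), but was not called after median-of-ratios scaling (-0.53, adjusted p 0.196). None of the 3 genes had overlapping groups. Over all tested genes 4.83% had all induced libraries above all uninduced ones, and 28.2% had them below.

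With 2 libraries left in a group these calls were mostly lost, while the directions held. H3f3b and H1f0 were called only without uninduced replicate 2, with adjusted p otherwise up to 0.095 and 0.0995. H3f3a was called only without uninduced replicate 1, with adjusted p otherwise up to 0.081. H3f3b held 78.7%, 77.3% and 70.3% of the summed H3f3a and H3f3b TPM in uninduced and 90.8%, 90.3% and 88.7% in induced libraries. Of all H3 transcript, H3f3a and H3f3b together held 43.3%, 48.4% and 45.4% in uninduced libraries. They held 71.8%, 70.9% and 67.6% in induced libraries. Both shares were higher in every induced library and do not depend on the scaling.

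**Figure D3:**
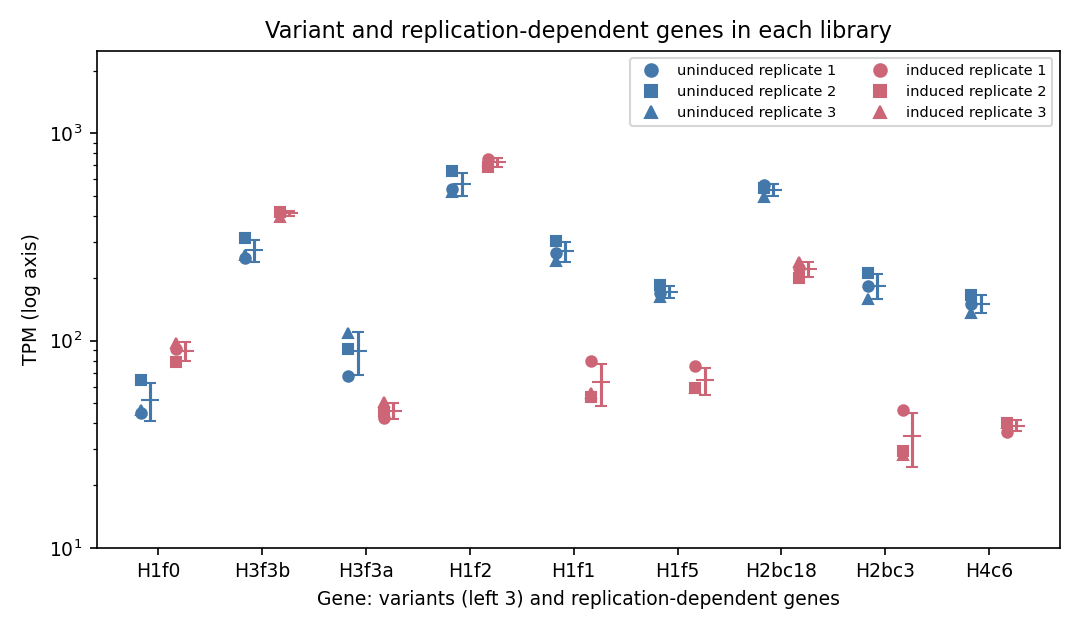
TPM on a log axis (y) of the variant genes H1f0, H3f3b and H3f3a and of 6 replication-dependent genes (x) in each library, with mean and SD (n = 3 each). H1f0, H3f3b and H1f2 are higher in the 3 induced libraries (red), and H3f3a, H1f1, H1f5, H2bc18, H2bc3 and H4c6 are lower.

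Among the variant genes reached only by an older symbol, 6 of 9 were tested, 2 were called lower and 0 higher, against 10.2% and 1.29% of all tested genes. H2ax, the variant phosphorylated at DNA breaks, was at 41.7, 54.7 and 64.4 TPM in uninduced and 19.7, 19.9 and 19.0 TPM in induced libraries. It fell by 1.39 (SE 0.22, limma adjusted p 0.0049). H2ax carries a stem-loop of another form, with the loop in capitals.
H2ax: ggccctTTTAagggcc
H2az1, one of the genes for the promoter-associated variant H2A.Z, was at 88.9, 112 and 85.96 TPM, against 30.5, 47.1 and 43.6 TPM, and fell by 1.23 (limma adjusted p 0.0069). The calls of H2ax and H2az1 held after median-of-ratios scaling. Macroh2a1, a variant with a large extra domain, was at 216, 219 and 205 TPM, against 198, 172 and 194 TPM. Its change of -0.19 (limma adjusted p 0.420) turned to 0.21 after median-of-ratios scaling. H2aj was at 4.19, 19.5 and 20.6 TPM, against 26.5, 25.4 and 36.5 TPM, and was not called (1.19, limma adjusted p 0.143), with a change of 0.52 without uninduced replicate 1. With these 9 genes counted in, 3 of 9 tested variant genes were called lower and 2 higher, against the same shares, and the summed variant TPM differed by 0.042 log2 units. The 3 replication-dependent genes reached only by an older symbol, H2aw, H2bu2 and H4f16, were tested and not called. Their median change was -0.059, and all 3 changes were above 0 after median-of-ratios scaling. With all 12 older-symbol genes counted in their classes, the log2 ratio of replication-dependent to variant TPM differed by -0.98.

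Of the other linker genes only H1f10 was tested, at 6.23, 14.1 and 18.6 TPM in uninduced and 5.80, 2.34 and 5.98 TPM in induced libraries. Its groups did not overlap, and its change of -1.25 was not called (limma adjusted p 0.098). H1f6, a testis linker histone, ranged from 0 to 1.61 TPM.

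Annotated transcripts differ in how far they run past the stem-loop. Some replication-dependent genes can also end at a poly(A) site further downstream, which is background and was not measured here. Of the 23 tested genes with at most 100 annotated bases after the stem-loop, 14 fell, with a median change of -1.18. Of the 18 with more than 100 bases, 8 fell, with a median of -0.64. Of the 9 with more than 600 bases, 3 fell, with a median of -0.59. All 3 shares lie above the 10.2% of all tested genes called lower. After median-of-ratios scaling 7 of 23, 2 of 18 and 1 of 9 were called lower, against 3.21% of all tested genes. Without uninduced replicate 1 these were 12 of 23, 2 of 18 and 1 of 9, against 4.63%. These limits were chosen after the values were seen, and no test was run between the groups. The long genes differed among themselves. Those not called lower include H1f2 (840 bases after the stem-loop), H1f3 (4884 bases), H2bc6 (1861 bases) and H2ac6 (2010 bases). H2ac6 was at 10.3, 26.3 and 22.9 TPM, against 23.4, 23.0 and 29.5 TPM, a change of 0.43 (limma adjusted p 0.435) that was 0.034 without uninduced replicate 1. H2bc6 passed the filter only through its induced libraries. Long genes that fell include H2bc9 (1214 bases, change -1.72, limma adjusted p 0.016) and H3c4 (752 bases, -1.03, limma adjusted p 0.015). The H3c4 call was lost under median-of-ratios scaling (-0.65, adjusted p 0.074) and in 4 of 6 fits without 1 library, those without uninduced replicate 1 or 2 or induced replicate 1 or 2. The H2bc9 call was lost without uninduced replicate 2, induced replicate 1 or induced replicate 2, with adjusted p up to 0.062. H1f4 (1153 bases) had an uncalled change of -2.63. H4c4 has 770 bases after the stem-loop, and H2bc3, H2bc12 and H4c6 have 23, 30 and 33 bases.

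**Figure D4:**
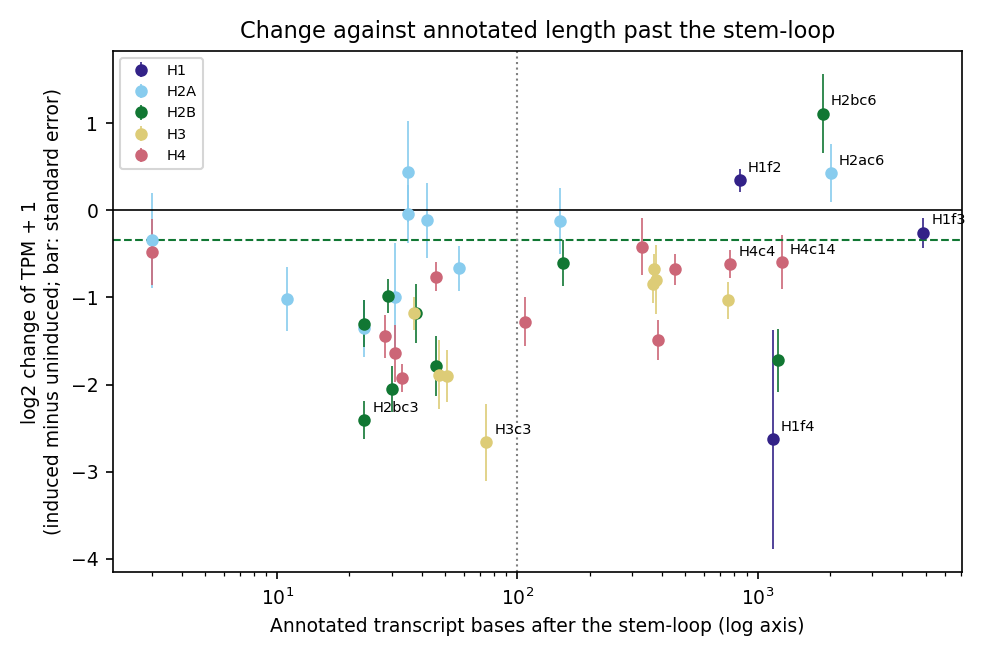
The log2 change of TPM + 1 (y axis, bar: standard error) against the annotated transcript bases after the stem-loop (x axis, log scale), coloured by class. The dashed line is the median of all tested genes and the dotted line marks 100 bases. H2bc6, H2ac6 (0.43, but 0.034 without uninduced replicate 1) and H1f2 lie above 0 on the right, while H1f4 and H2bc9, also with long models, lie low.

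Position gave a similar description. The members on chromosome 13 (54 genes between 21715763 and 23934851) include the large histone cluster, and 10 lie on chromosome 3 between 96219865 and 96270132. Of the replication-dependent genes 30 of 51 tested on chromosome 13 fell (median change -1.04), and 1 of 9 on chromosome 3 fell (H2bc18, median -0.59). The chromosome 3 share is near the 10.2% of all tested genes called lower. After median-of-ratios scaling 15 of 51 and 1 of 9 were called lower, against 3.21%. Without uninduced replicate 1 they were 23 of 51 and 2 of 9, against 4.63%. The chromosome 3 group holds 4 of the H2A genes, so the low uninduced replicate 1 touches it too. Copies of a histone gene are near-identical, and reads may have been split among them. Of the 42 tested genes that shared at least 20% of their 100-base windows with another gene, 23 fell (median -1.04), and of the 18 below that limit 8 fell (median -0.66). After median-of-ratios scaling these were 11 of 42 and 5 of 18. Most windows of the second kind are unique to their gene, and these genes include H1f1, H1f5 and H4c6, whose values are given above. Of the first kind, also given above, H2bc12 shared 70.8%, H2ac10 65.3%, H2bc15 52.1%, H2bc18 45.4%, H2bc3 32.8% and H3c3 28.4%. The single-gene levels of these may depend on how reads were split. Class sums lessen this uncertainty but do not remove it, because TPM divides by gene length, which varies within a class.

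Genes that make, process and deposit histones were read from 5 lists. All calls in the 5 lists were lower, and the counts below stand against 10.2% of all tested genes called lower, or 3.21% after median-of-ratios scaling. In the list for histone gene transcription 3 of 10 tested genes fell, among them Ccna2 and Ccne1, cyclins that activate Cdk2 in S phase. Ccna2 was at 17.4, 17.2 and 11.2 TPM in uninduced and 0.806, 1.95 and 3.43 TPM in induced libraries, and fell by 2.48 (limma adjusted p 0.0053). Ccne1, which passed the filter on low values only through its uninduced libraries, fell by 2.16 (limma adjusted p 0.012), and Casp8ap2, a histone locus body protein, fell by 2.07 (limma adjusted p 0.031). Casp8ap2 was not called after median-of-ratios scaling (adjusted p 0.074). Npat, the cyclin E-Cdk2 substrate that activates histone promoters, was at 5.76, 8.0 and 8.48 TPM, against 3.35, 5.14 and 5.58 TPM, and was not called (-0.57, limma adjusted p 0.288).

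In mRNA processing and decay 15 of the 17 listed genes were found by symbol, 14 were tested and 5 fell. Slbp, the stem-loop binding protein, was at 51.2, 53.5 and 40.0 TPM in uninduced and 10.2, 15.2 and 17.6 TPM in induced libraries. Its groups were far apart, and it fell by 1.70 (SE 0.25, limma adjusted p 0.0041). Cstf2, part of the 3′ end cleavage machinery, fell by 1.35 (limma adjusted p 0.0063), and the cap-binding genes Ncbp1 and Ncbp2 fell by 1.21 and 0.999 (limma adjusted p 0.015 and 0.027). After median-of-ratios scaling 2 calls remained in this list, Slbp and Cstf2.

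Replication-coupled chaperones, which deliver new H3 and H4 to replicating DNA, fell in 9 of 12 tested genes, with a median change of -1.26. Chaf1a, a subunit of the CAF-1 complex, was at 13.4, 18.8 and 12.8 TPM in uninduced and 1.27, 1.84 and 2.97 TPM in induced libraries, and fell by 2.42 (limma adjusted p 0.0037). Chaf1b, its partner, fell by 1.22 (limma adjusted p 0.028). Nasp, which holds the soluble H3 and H4 pool, was at 39.5, 48.1 and 39.0 TPM, against 10.2, 8.70 and 8.45 TPM, and fell by 2.09 (limma adjusted p 9.38e-04). Mcm2, a helicase subunit that binds H3 and H4, fell by 2.09 (limma adjusted p 9.11e-04), and Asf1b, the proliferation-linked ASF1 gene, fell by 2.08 (limma adjusted p 0.017). Asf1b passed the filter on low values only through its uninduced libraries. After median-of-ratios scaling 4 of the 12 were called lower, Chaf1a, Nasp, Mcm2 and Asf1b.

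Chaperones of variants and of replication-independent deposition had 3 of 13 calls, with a median change of -0.59. Hjurp, the CENP-A chaperone, fell by 0.94, Anp32e, an H2A.Z chaperone, fell by 0.90, and Srcap, which exchanges H2A.Z into nucleosomes, fell by 0.82 (limma adjusted p 0.046, 0.031 and 0.032). None of the 13 was called after median-of-ratios scaling. The H3.3 chaperones Hira (-0.87, limma adjusted p 0.162), Daxx (-0.26, adjusted p 0.491) and Atrx (-0.63, adjusted p 0.139) were not called, and Daxx turned to 0.12 after median-of-ratios scaling. Cenpa, the centromeric H3 variant, fell by 1.19 (limma adjusted p 0.037), and was not called after median-of-ratios scaling (adjusted p 0.172).

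Of the general nucleosome chaperones 5 of 8 fell, and 3 were called lower after median-of-ratios scaling. Set fell by 1.49, Npm1 by 1.29, Nap1l1 by 1.05 and the FACT subunit Ssrp1 by 1.04 (limma adjusted p 0.0027, 0.0021, 0.013 and 0.0053). Npm1 was the most abundant of them, at 514, 533 and 433 TPM in uninduced and 207, 169 and 230 TPM in induced libraries. Nap1l1 was not called after median-of-ratios scaling (adjusted p 0.062). Mki67, a marker of cycling cells, was at 48.0, 53.2 and 48.6 TPM, against 6.11, 7.23 and 7.79 TPM, and fell by 2.67 (limma adjusted p 2.55e-04). The part of this lower level of cycling-cell transcript in the histone changes was not tested.

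**Figure D5:**
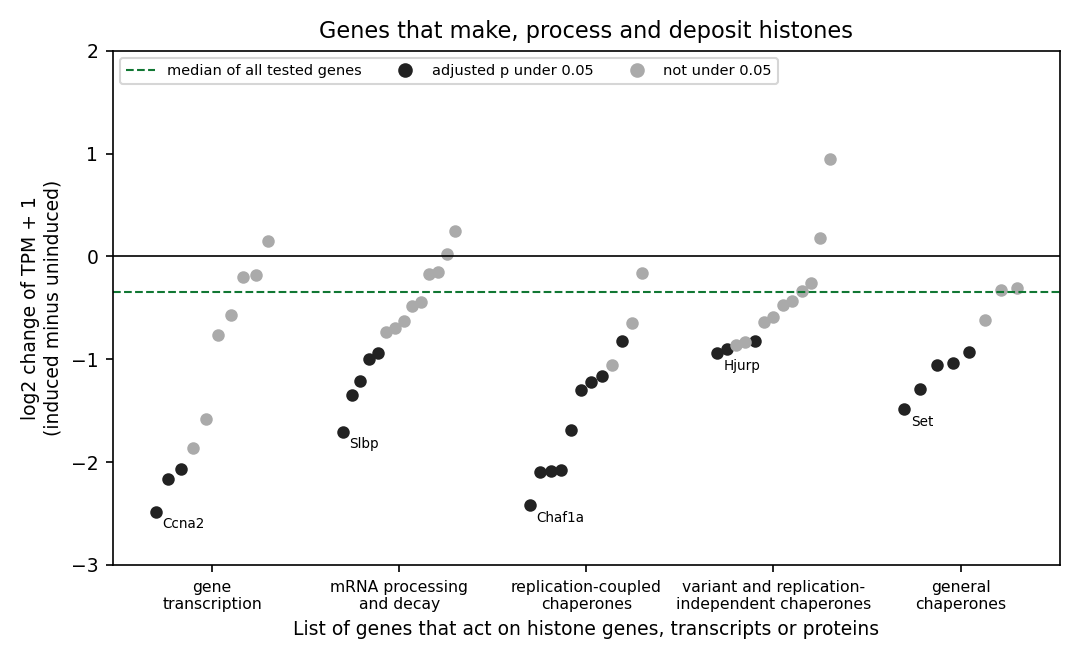
The log2 change of TPM + 1 (y axis) of each tested gene in 5 lists of genes that act on histone genes, transcripts or proteins (x axis), with the lowest gene of each list named. Black points have an adjusted p under 0.05 and the dashed line is the median of all tested genes. Replication-coupled chaperones have 9 black points of 12, and variant chaperones 3 of 13.

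Markers of the sorted cells and of neighbouring cell types moved with the groups in part. The 10 stem cell markers were all measured, and their summed level was 465 to 640.5 TPM in uninduced and 517 to 547 TPM in induced libraries, with 3 called higher (Procr, Hlf and Ly6a) and 3 lower, Kit among them, against 1.29% and 10.2% of all tested genes. After median-of-ratios scaling 4 were called higher and 1 lower, against 2.84% and 3.21%. The 12 erythroid markers summed to 57.2 to 62.9 TPM in uninduced and 419 to 482 TPM in induced libraries, and 7 of 9 tested were called higher, globins included, against 1.29% of all tested genes. The other way went 1 tested erythroid marker, with an uncalled change of -1.65 and every induced library below every uninduced one. That order held for 28.2% of all tested genes. The part of the erythroid markers in the histone changes was not tested. Sums of megakaryocyte and platelet markers (107 to 143, against 124 to 135 TPM) and of myeloid markers (236 to 284, against 234 to 284 TPM) overlapped. Within them Ppbp, Pf4 and Prtn3 were called higher (changes of 3.22, 1.13 and 1.12, limma adjusted p 0.0034, 0.025 and 0.011) and Gp9 lower (-2.33, limma adjusted p 0.019), the last not after median-of-ratios scaling (adjusted p 0.062). Ppbp passed the filter on low values only through its induced libraries. The 10 lymphoid markers summed to 4.35 to 9.86 TPM in uninduced and 3.11 to 3.85 TPM in induced libraries, and the 1 that was tested was not called. The lymphoid markers Il7r, Dntt, Cd79a, Cd3e and Ebf1 were listed at 0 in all 6 libraries. Genes with histone names but of other types, such as pseudogenes, summed to 83.5 to 119 TPM in uninduced and 79.2 to 109 TPM in induced libraries and overlapped.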

How the data were processed

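Values were TPM as the authors deposited them, in a gene table with a column per library whose name gives StringTie. The submitters' processing notes also list bcl2fastq, HISAT2, DESeq2 and build GRCm38, with no roles or versions, and how multi-mapped reads were handled is not given in the sources used here. Rows were summed per gene ID (60496 rows, 55471 IDs). Libraries sum to 999976 to 999993 TPM, and depth is unknown. A GC content column in percent, deposited with the table, was used for a GC correction and to describe uninduced replicate 1. Gene positions and transcripts came from GENCODE M21, matched by gene ID for all 70 members.

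Tests used limma 3.58.1 in R 4.3.3 on log2(TPM + 1), with a variance trend, two-sided, for the 13470 genes averaging 1 TPM or more, adjusted by Benjamini-Hochberg over all of them. Figures and sums used Python 3.11.15. This limma fit was tested on simulated data with known changes, independent normal noise and no offset between the groups. Such data hold neither the offset nor the low H2A library, so that check does not cover them. Sums, shares and medians carry no test. The members and lists were chosen with earlier results of these data known, so they are no independent support.

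By rule, library values are given for the 6 called replication-dependent genes with the largest change, the 6 most abundant and every variant gene. Named by rule, not all with library values, are up to 4 called genes per list and Slbp, Npat, Chaf1a, Chaf1b, Asf1b, Hira, Daxx, Atrx, Cenpa and Mki67. H1f3, H1f4, H1f5, H2bc9, H3c4, H2aw, H2bu2, H4f16, H2ac6, H2bc6, H2bc21, H2ax, H2az1, Macroh2a1, H2aj and the untested genes were chosen after their values were seen. Alternatives were pseudocounts of 0.1 and 5, other expression filters, 2 scalings, no variance trend, leaving out each library in turn and a replicate block. A GC correction and members by either symbol were added after seeing the data.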

Additional observations from a re-analysis of the deposited data

How the results depend on the processing

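The number of genes called over all 13470 tested genes was 1549. It was 814 after median-of-ratios scaling (432 lower, 382 higher). After rescaling to nuclear protein-coding genes, which tested only 10562 genes, it was 886 (451 lower, 435 higher). It was 752 without the expression filter, 767 without the variance trend and 573 to 1198 with 1 library left out. Replication-dependent genes called were 31, against 19 without the filter, 17 after median-of-ratios scaling, 20 without the trend and 18 to 27 with 1 library left out. All 19 and all 20 were among the 31, as were 16 of the 17. Variant genes called were 3, against 0 without the filter, 0 without the trend, 0 to 2 with 1 library left out, and 5 when members reached by an older symbol are counted in. The median change of replication-dependent genes (-1.0) was -0.62 after median-of-ratios scaling, -0.61 after rescaling and -1.15 to -0.89 with 1 library left out. That of variant genes (0.59) was 0.99, 1.03 and 0.53 to 0.69, and reversed to -0.19 with the older symbols. The log2 difference of summed replication-dependent TPM (-0.94) was -0.54 and -0.51 under these scalings and -1.04 to -0.82 with 1 library left out. That of summed variant TPM (0.40) was 0.80, 0.84 and 0.31 to 0.49, and 0.042 with the older symbols. The log2 ratio of both (-1.35) was -0.98 with the older symbols and -1.38 to -1.31 with 1 library left out.

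Processing and decay genes called (5) were 2 under either scaling, 3 without the trend and 2 to 5 with 1 library left out. Replication-coupled chaperones (9) were 5 without the filter, 4 under either scaling, 5 without the trend and 4 to 7. Variant chaperones (3) were 0 without the filter, under either scaling and without the trend, and 0 to 1. General chaperones (5) were 3 after median-of-ratios scaling, 3 without the trend and 4 to 5. Transcription genes (3) were 2 to 3. Daxx, H1f3 and Macroh2a1, none of them called, reversed to 0.12, 0.14 and 0.21 after median-of-ratios scaling and 0.16, 0.18 and 0.25 after rescaling. The cause of these differences was not tested.

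Same-numbered libraries did not deviate together (correlations 0.0215, -0.0152 and 0.0172), and differently numbered ones gave -0.0402 to 0.0224. Such values cannot show whether same-numbered libraries share a batch, and the labels do not say. With the replicate block 902 genes, 26 replication-dependent genes and 1 variant gene (H3f3a) were called, with 3 processing genes and 0 variant chaperones. Depth is unknown, and with 3 libraries a group the spread between libraries limits each call.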
